A study of Mus musculus with 59 samples.

Results

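The 8 genes described here mark the cells that come before the myelinating oligodendrocyte: Pdgfra, Cspg4, Sox6, Lhfpl3 and Cacng4 are used as markers of oligodendrocyte precursors, and Gpr17, Enpp6 and Bcas1 as markers of precursors committed to differentiate. They were chosen with earlier results of these data known. Their rows were found by symbol, through the Ensembl identifiers of the deposited table, and all 8 are among its 18088 genes. The table comes from bulk RNA sequencing of dissected prefrontal cortex of 59 C57BL/6J mice on postnatal day 25, with 1 library per mouse. The mice carried the I48X allele of Dyrk1a on 1 of their 2 copies (Dyrk1a+/I48X, heterozygous) or were wild type. From postnatal day 3 to day 24 they received vehicle, lithium or fluoxetine through the mother's milk. Each drug was given to 10 heterozygous mice, 5 of each sex. Among wild-type mice 10 received vehicle, 10 lithium and 9 fluoxetine, the fluoxetine group having 5 females and 4 males and the other groups 5 of each sex. The dose that reached a pup, and which pups shared a mother, are not stated in the labels. The tests treat each mouse as independent, but some may be littermates, so the p-values may be too small. The labels restrict neither the allele nor the drugs to a cell type.

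Oligodendrocyte precursors spread through the whole cortex and continue to divide after birth. They carry the receptor for platelet-derived growth factor A, encoded by Pdgfra, and the surface proteoglycan NG2, encoded by Cspg4. A precursor that leaves the cell cycle loses both and passes through a short committed stage, in which the receptor GPR17, the choline phosphodiesterase ENPP6 and the protein BCAS1 appear, before the myelin genes are switched on. SOX6, a transcription factor of the SoxD family, holds precursors in the undifferentiated state, and SOX10, SOX8 and OLIG1 act with OLIG2 in specifying and maturing the lineage. Several of these markers are shared with other cells: Pdgfra is also made by leptomeningeal fibroblasts, Cspg4 by pericytes and Sox6 by cortical interneurons born in the medial ganglionic eminence. In bulk tissue, fewer cells of a type and less RNA per cell cannot be told apart.

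The 250 bases upstream of the annotated start are shown for 3 genes that the results turn on, Lhfpl3 and Sox6, which moved in opposite directions from library to library, and Enpp6, which moved with Bcas1. They are taken from RefSeq (GRCm38.p6), which held 5 of the 8 genes (Lhfpl3, Sox6, Enpp6, Pdgfra and Cspg4), and are written 5′ to 3′ on the strand of the gene. Capitals mark matches, on either strand, to the letters CAGCTG (an E-box, the kind of site that OLIG and ASCL factors read), AACAAT and ACAAAG (2 forms of the site read by SOX factors, searched also as ATTGTT and CTTTGT). For Sox6, which has several starts, the outermost is shown.
Lhfpl3: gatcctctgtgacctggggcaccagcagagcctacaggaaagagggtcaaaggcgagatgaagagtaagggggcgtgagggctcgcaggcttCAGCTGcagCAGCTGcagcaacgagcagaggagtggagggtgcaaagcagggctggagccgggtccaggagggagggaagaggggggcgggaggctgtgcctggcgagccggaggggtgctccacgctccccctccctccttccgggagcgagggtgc
Enpp6: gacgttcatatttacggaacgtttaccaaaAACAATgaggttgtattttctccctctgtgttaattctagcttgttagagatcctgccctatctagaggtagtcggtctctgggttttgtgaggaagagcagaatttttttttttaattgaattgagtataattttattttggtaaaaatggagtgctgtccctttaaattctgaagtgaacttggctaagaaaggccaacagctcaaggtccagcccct
Sox6: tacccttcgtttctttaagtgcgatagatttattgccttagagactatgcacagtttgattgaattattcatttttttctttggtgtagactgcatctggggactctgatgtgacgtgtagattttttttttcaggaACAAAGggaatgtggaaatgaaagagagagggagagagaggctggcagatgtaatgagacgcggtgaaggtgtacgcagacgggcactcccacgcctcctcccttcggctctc

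The Lhfpl3 window lies at chr5:22745804-22746053 on the plus strand and holds 2 copies of CAGCTG. The Enpp6 window lies at chr8:46986637-46986886 on the plus strand and holds 1 AACAAT. The Sox6 window lies at chr7:116038745-116038994 on the minus strand and holds 1 ACAAAG. Of 32851 such windows in the same RefSeq table, 13% held CAGCTG, 9.424% AACAAT and 16.46% ACAAAG. None of the 3 motifs was in the corresponding windows of Pdgfra and Cspg4. These are matches of letters only.

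Before the comparisons, 3 facts of the libraries bear on the values. Recovered library totals lay between 24391022 and 33842466 counts (median 27601196), and the lowest count behind any value of the 8 genes was 175 for Enpp6. Dyrk1a itself averaged 2326 ± 65.9 normalised counts in heterozygous and 2232 ± 55.7 in wild-type vehicle mice (SD, n = 10 each), so its level is no check of the genotype labels. Markers of olfactory bulb neurons, a list of 14 genes, varied widely between the dissected pieces of tissue, with a summed level from 6297 to 59065 normalised counts among the vehicle males alone, and 2 fluoxetine-treated heterozygous males (replicates 3 and 4) stood apart from the other 57 libraries in several genes, Dyrk1a among them (4214 and 3278 normalised counts).

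All 8 genes were measured in every library. On the scale of normalised counts per kilobase of merged exon, Gpr17 was the most abundant (531 ± 68.4, SD over 59 libraries), followed by Bcas1 (518 ± 74.1), Cacng4 (347 ± 62.0), Lhfpl3 (326 ± 104), Pdgfra (166 ± 18.2), Enpp6 (66.6 ± 12.5), Cspg4 (41.4 ± 3.67) and Sox6 (40.3 ± 4.47). Neighbours in this order were not always separated. Gpr17 exceeded Bcas1 in 36 of 59 libraries, Cacng4 exceeded Lhfpl3 in 45 and Cspg4 exceeded Sox6 in 36, whereas Lhfpl3 exceeded Pdgfra and Pdgfra exceeded Enpp6 in all 59. The 2 most abundant, on this scale, were thus markers of the committed stage, while the third committed marker, Enpp6, was below 3 of the precursor genes and above Cspg4 in 57 of 59 libraries.

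The genes also differed in how much they varied. The coefficient of variation over the 59 libraries was highest for Lhfpl3 (31.7%), a tetraspan protein related to the hair-cell gene Lhfpl5, then Enpp6 (18.7%) and Cacng4 (17.9%), an auxiliary subunit of AMPA-type glutamate receptors. It was 14.3% for Bcas1, 12.9% for Gpr17, 11.08% for Sox6, 10.96% for Pdgfra and lowest, 8.87%, for Cspg4. Lhfpl3 ranged from 615 to 2370 normalised counts, with a median of 996, and its 2 highest libraries, at 2370 and 2314, were both heterozygous vehicle males.

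**Figure D1:**
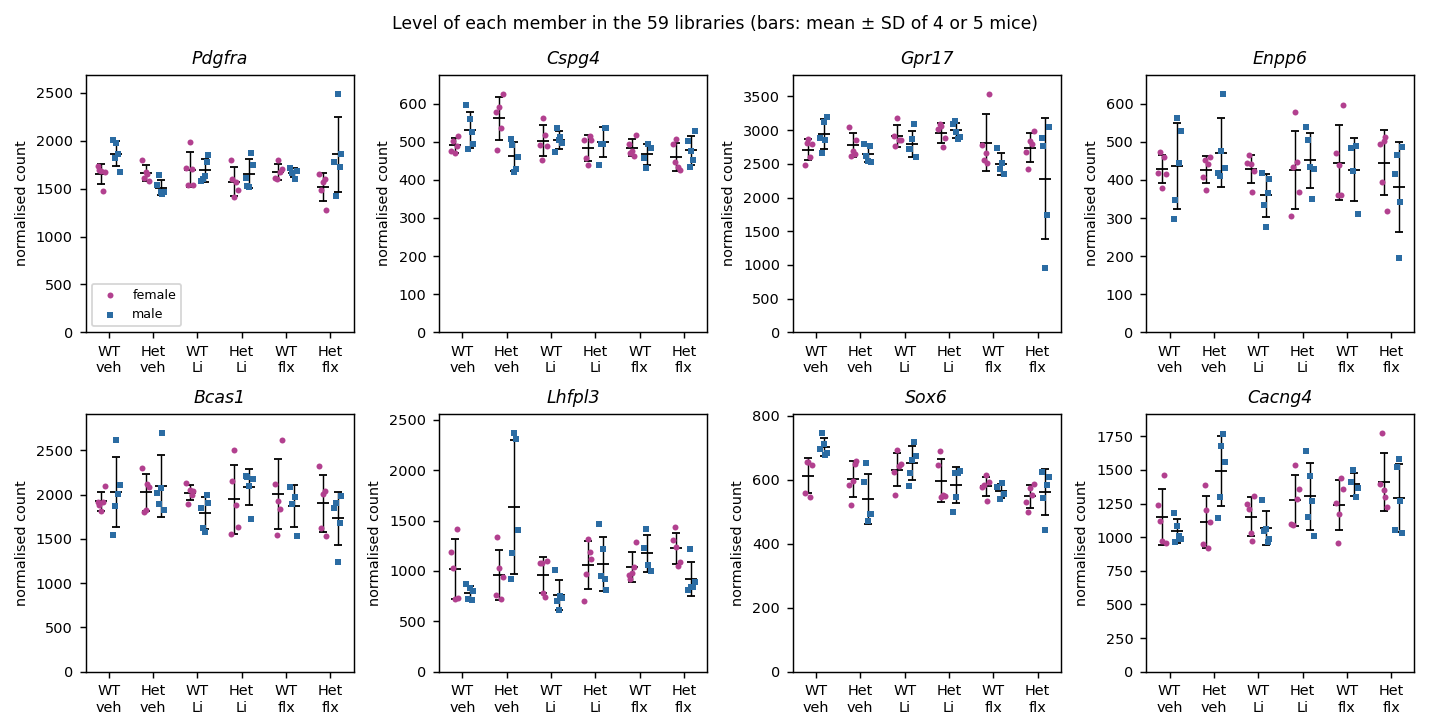
Normalised counts of the 8 marker genes in each of 59 mice, by genotype and drug (8 panels, linear axes, points for females and males, bars for the mean ± SD of the 4 or 5 mice of each sex). Lhfpl3 and Cacng4 spread widely among heterozygous vehicle mice, and in Gpr17 the heterozygous fluoxetine group holds 2 low values, 957 and 1742.

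Under vehicle, 2 of the 8 genes differed between genotypes: Lhfpl3 was higher and Sox6 lower in heterozygous mice. Pdgfra, Cspg4, Gpr17, Enpp6, Bcas1 and Cacng4 did not pass the test. The 10 heterozygous vehicle mice had 915, 1178.5, 2370, 2314 and 1406 normalised counts of Lhfpl3 in the males and 757, 1336, 1028, 725 and 942 in the females. The wild-type vehicle mice had 870, 719, 829.4, 712 and 797 in the males and 1193, 1032, 721, 1416 and 732 in the females. Every heterozygous male thus lay above every wild-type male, while the females of the 2 genotypes overlapped. The means were 1297 ± 594 and 902 ± 239 (SD, n = 10 each), and the log2 fold change was 0.44 ± 0.14 (SE; 95% interval 0.16 to 0.73; limma adjusted p = 0.0369; 8 of 10 heterozygous mice above the wild-type mean).

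Sox6 in the heterozygous vehicle mice was 593, 651, 470, 491 and 493.3 normalised counts in the males and 582, 522, 597, 650 and 657 in the females. In the wild-type mice it was 694, 746, 711, 675 and 684 in the males and 558, 656, 655, 546 and 647 in the females. Here too the males of the 2 genotypes did not overlap, with the heterozygous ones lower, and the females overlapped. The mean was 571 ± 71.8 against 657 ± 62.7, a log2 fold change of -0.21 ± 0.06 (SE; 95% interval -0.33 to -0.09; limma adjusted p = 0.0278; 10 of 10 heterozygous mice below the wild-type mean).

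Of all 17901 genes tested, 13.1% passed in the vehicle comparison of genotypes, 1079 higher and 1274 lower, and 2 of 8 is to be read against that share. How many of them separated the vehicle males by genotype, as Lhfpl3 and Sox6 did, was not counted. The median log2 fold change of the 8 genes was 0.03, against -0.00 over all genes. Among the 6 that did not pass, the largest differences were in Cacng4 (1303 ± 293 against 1096 ± 161 normalised counts; 0.23 ± 0.10, limma adjusted p = 0.0893) and Pdgfra (1587 ± 113 against 1760 ± 157; -0.15 ± 0.06, limma adjusted p = 0.0767). The committed markers were closer still. Bcas1 averaged 2063 ± 274 in heterozygous and 1977 ± 277 in wild-type mice, Gpr17 2710 ± 160 and 2827 ± 217, and Enpp6 449 ± 69.0 and 432 ± 79.7, with limma adjusted p from 0.671 to 0.767. Cspg4 had the same mean, 511, in both.

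Markers of other cells moved with the Lhfpl3 and Sox6 differences. Olfactory bulb genes were higher in heterozygous vehicle mice (11 of 14 passed, all higher, median log2 fold change 1.42), as were 6 of 10 neuroblast genes, of which 1 other was lower. Genes of interneurons from the medial ganglionic eminence, the cells that also make Sox6, were lower (5 of 8 passed, among them Lhx6 at -0.56 ± 0.13 and Sst at -0.56 ± 0.13), as were 5 of 9 genes of cortical projection neurons. Of the other lists, 1 of 8 astrocyte genes was lower and 1 of 9 striatal neuron genes higher, and no gene of the pericyte, leptomeningeal fibroblast, microglia, endothelial or proliferation lists passed. The summed olfactory bulb level ran from 14554 to 59065 normalised counts in the heterozygous vehicle males and from 6297 to 10948 in the wild-type ones. With the mean of the olfactory bulb list as a covariate, Lhfpl3 differed by 0.07 (limma adjusted p = 0.895) and Sox6 by -0.11 (limma adjusted p = 0.751), and no gene of all those tested passed. The list was itself higher in heterozygous vehicle mice, so this fit cannot tell a genotype effect from a difference in olfactory bulb content. The part of the interneuron and neuroblast genes in the result was not tested.

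Both calls under vehicle also ended when single mice were left out. For Lhfpl3 these were heterozygous females 2, 3 and 5, heterozygous males 3 and 4, wild-type females 2, 3 and 5 and wild-type males 2 and 4, with values of 0.37 to 0.54 and limma adjusted p up to 0.122 over the 20 libraries left out in turn. For Sox6 they were heterozygous females 2 and 3, heterozygous males 3 and 4, wild-type females 3 and 5 and wild-type male 2, with values of -0.24 to -0.18 and limma adjusted p up to 0.0944. Pdgfra passed without heterozygous male 2 or wild-type female 4, and without the 2 fluoxetine-treated heterozygous males that stand apart (limma adjusted p = 0.0339), where its value stays -0.15; Cacng4 passed without heterozygous male 1 or wild-type female 4 (lowest limma adjusted p 0.0280).

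Averaged over the 3 drugs, with 30 heterozygous and 29 wild-type mice, 3 of the 8 genes passed, against 21.4% of all genes tested. Lhfpl3 was higher in heterozygous mice (1144 ± 393 against 948 ± 221 normalised counts, SD; log2 fold change 0.23 ± 0.08, limma adjusted p = 0.0406). Cacng4 was higher as well (1314 ± 239 against 1166 ± 176; 0.16 ± 0.06, limma adjusted p = 0.0404), and Sox6 was lower (571 ± 61.8 against 626 ± 59.9; -0.13 ± 0.03, limma adjusted p = 0.0128). The ranges of the genotypes overlapped in all 3: Lhfpl3 ran from 697 to 2370 in heterozygous and from 615 to 1416 in wild-type mice, and Sox6 from 443 to 691 and from 532 to 746. Pdgfra missed the threshold (-0.08 ± 0.03, limma adjusted p = 0.104) and passed without the 2 fluoxetine-treated males that stand apart (-0.10, limma adjusted p = 0.0229) or without male 3 of them alone, and the adjusted p of Cspg4, Gpr17, Enpp6 and Bcas1 lay between 0.593 and 0.891. In this average 1 of 14 olfactory bulb genes passed, higher, and 7 of 8 medial interneuron genes, lower. With the olfactory bulb covariate none of the 3 passed (Lhfpl3 0.07, limma adjusted p = 0.405; Cacng4 0.06, limma adjusted p = 0.395; Sox6 -0.09, limma adjusted p = 0.132). The Sox6 call held whichever library was left out, the Lhfpl3 call ended with 24 of the 59 (limma adjusted p up to 0.0704) and the Cacng4 call with 27 (up to 0.0690), which also did not pass without the 2 males (0.14, limma adjusted p = 0.0629).

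Within the drug-treated mice none of the 8 genes passed between genotypes. Under lithium Lhfpl3 averaged 1064 ± 238 in heterozygous and 859 ± 186 in wild-type mice (log2 fold change 0.31 ± 0.14, limma adjusted p = 0.252), Cacng4 1289 ± 209 and 1110 ± 134 (0.21 ± 0.10, limma adjusted p = 0.25) and Sox6 590 ± 59.5 and 641 ± 50.4 (-0.12 ± 0.06, limma adjusted p = 0.265). These values had the signs seen under vehicle. An unadjusted limma p under 0.05 was found in 3 of the 8 genes and in 3282 of all 17901 tested. By adjusted p only 0.0112% of all genes passed there. Under fluoxetine, where again 0.0112% passed, Lhfpl3 averaged 1071 ± 223 and 1099 ± 170 (n = 10 and 9), Cacng4 1350 ± 230 and 1307 ± 162, and Sox6 554 ± 53.8 and 573 ± 26.2. Limma adjusted p of the 8 genes lay between 0.524 and 0.967, and none had an unadjusted p under 0.05. edgeR on the recovered counts also called none of the 8 in either comparison.

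**Figure D2:**
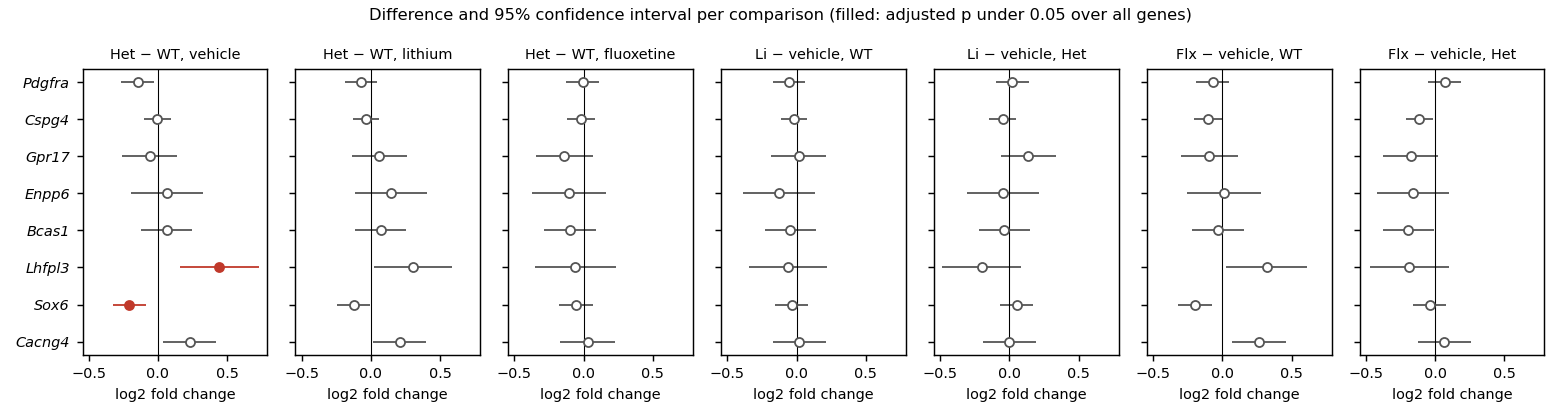
Log2 fold change with 95% interval of each of the 8 genes in 7 comparisons, with filled red points where the limma adjusted p is under 0.05. Lhfpl3 and Sox6 are filled for genotype under vehicle, and no gene is filled between genotypes within a drug or between a drug and vehicle.

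Whether the genotype difference depended on sex was asked of the vehicle mice by the difference between the female and the male effect. Of the 8 genes 4 passed, against 16% of all genes: Lhfpl3 (female minus male effect -1.04 ± 0.28, limma adjusted p = 0.0179), Cacng4 (-0.54 ± 0.19, limma adjusted p = 0.0457), Sox6 (0.36 ± 0.12, limma adjusted p = 0.0318) and Cspg4 (0.39 ± 0.10, limma adjusted p = 0.0166). In males the heterozygous minus wild-type values were 0.96 ± 0.20 for Lhfpl3, 0.50 ± 0.14 for Cacng4, -0.39 ± 0.08 for Sox6 and -0.20 ± 0.07 for Cspg4. In females they were -0.07 ± 0.20, -0.04 ± 0.14, -0.03 ± 0.08 and 0.19 ± 0.07. Cspg4 is the only one of the 4 with values of opposite sign and similar size, at 508, 490, 420, 428 and 460 normalised counts in heterozygous males against 597, 480, 560, 525 and 494 in wild-type males, and 577, 479, 592, 536 and 626 in heterozygous females against 475, 501, 469, 489 and 516 in wild-type females.

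Pdgfra had the same kind of pattern (0.31 ± 0.12) but did not pass (limma adjusted p = 0.0572). It passed with the filter of 100 (limma adjusted p = 0.0476), with the myelinating list as covariate (0.0425), without the 2 fluoxetine-treated males that stand apart (0.0217) and without heterozygous female 2, heterozygous male 1 or 2 or wild-type male 5 (lowest 0.0375). Its heterozygous males, at 1542, 1638, 1465, 1439 and 1465 normalised counts, all lay below the wild-type males, at 2002, 1817, 1978, 1856 and 1675. The females overlapped, at 1799, 1610, 1678, 1656 and 1581 in heterozygous and 1736, 1698, 1684, 1478 and 1672 in wild-type mice. The separation of the males has no background here either, since it was not counted over all genes tested.

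In the same mice the genotype difference of the olfactory bulb markers also depended on sex. By the same test 13 of 14 genes passed, all with a lower heterozygous minus wild-type value in females than in males. Their mean log2 level, as a deviation from the average library, was 1.28 for heterozygous and -1.73 for wild-type vehicle males, and -0.18 and -0.10 in the females. With that list as a covariate none of the 4 genes passed (limma adjusted p from 0.987 to 0.994), nor did any of all genes tested. Among the vehicle males the list means did not overlap, at -0.09 to 2.06 in heterozygous and -2.30 to -0.53 in wild-type mice. This fit therefore cannot tell a sex-dependent genotype effect from a difference in olfactory bulb content. Leaving out heterozygous male 3, heterozygous male 4 or wild-type female 4 ended the calls of Lhfpl3 and Cspg4 (limma adjusted p up to 0.0702), while 9 of 20 libraries ended that of Sox6 (up to 0.0999) and 13 that of Cacng4 (up to 0.132).

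Lithium left the 8 genes without a call in either genotype or over both. In heterozygous mice the value farthest from 0 was that of Lhfpl3 (1064 ± 238 under lithium and 1297 ± 594 normalised counts under vehicle; -0.20 ± 0.14, limma adjusted p = 0.663), and the highest value was that of Gpr17, a receptor that must be lost before a committed precursor can myelinate. Gpr17 was 3088, 3134, 2977, 2871 and 2902 normalised counts in the lithium males and 2794, 2610, 2541, 2771 and 2523 in the vehicle males, 2 groups that did not overlap. How many of all genes tested were separated in these males was not counted, so this has no background to be read against. In the females the lithium values of 3018, 3083, 3058, 2744 and 2884 overlapped the vehicle values of 3048, 2617, 2697, 2648 and 2848. The log2 fold change over both sexes was 0.14 ± 0.10 (limma adjusted p = 0.676), and in wild-type mice Gpr17 averaged 2854 ± 175 under lithium and 2827 ± 217 under vehicle. Pdgfra averaged 1613 ± 148 against 1587 ± 113 in heterozygous and 1693 ± 146 against 1760 ± 157 in wild-type mice.

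Over the 8 genes the limma adjusted p lay between 0.663 and 0.998 in heterozygous mice, between 0.995 and 0.999 in wild-type mice and between 0.619 and 0.969 over both, with no gene at an unadjusted p under 0.05 and none called by edgeR. Of all genes 0.497%, 0.162% and 2.12% passed in these comparisons. In the test of whether the lithium effect differed between genotypes 0% of all genes passed by limma, where 497 had an unadjusted p under 0.05, edgeR called 0, and all 8 had a limma adjusted p of 1.

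Fluoxetine also gave no call among the 8 genes, where 4.27% of all genes passed in heterozygous mice, 0.447% in wild-type mice and 3.09% over both. Cspg4 came nearest over both genotypes. It averaged 469 ± 36.3 normalised counts in heterozygous and 476 ± 24.6 in wild-type mice under fluoxetine, against 511 ± 69.8 and 511 ± 40.6 under vehicle (log2 fold change -0.11 ± 0.03, limma adjusted p = 0.0698). It passed when heterozygous fluoxetine male 1 or 5, heterozygous vehicle female 2 or heterozygous vehicle male 3 was left out (lowest limma adjusted p 0.0304).

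In wild-type mice the males given fluoxetine did not overlap the vehicle males in 3 of the marker genes. How many of all genes tested were separated in this way was not counted, so these 3 have no background to be read against. With both sexes in the comparison, 3136 of 17901 genes had an unadjusted limma p under 0.05. Lhfpl3 was 1227, 1411, 1061 and 996 normalised counts under fluoxetine and at most 870 under vehicle. Cacng4 was 1412, 1498, 1298 and 1363 against at most 1182, and Sox6 was 578, 540, 588 and 555 against at least 675. The olfactory bulb list was also higher in these males, with a summed level of 23201 to 32058 normalised counts against 6297 to 10948. Over both sexes of wild-type mice the log2 fold changes were 0.32 ± 0.15 for Lhfpl3 (limma adjusted p = 0.245), 0.26 ± 0.10 for Cacng4 (limma adjusted p = 0.156) and -0.19 ± 0.06 for Sox6 (limma adjusted p = 0.104). With the 2 heterozygous males that stand apart left out, or with only the 2 wild-type groups in the fit, Sox6 passed (limma adjusted p = 0.0495 and 0.0168).

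In heterozygous mice the committed markers had lower mean values under fluoxetine that did not pass. Bcas1 averaged 1817 ± 306 against 2063 ± 274 normalised counts (-0.19 ± 0.09, limma adjusted p = 0.188), Gpr17 2509 ± 661 against 2710 ± 160 (-0.18 ± 0.10, limma adjusted p = 0.268) and Enpp6 413 ± 103 against 449 ± 69.0. The medians of Gpr17 (2776 against 2672) and Enpp6 (440 against 436) were higher under fluoxetine, and that of Bcas1 was lower (1877 against 2049). Over 11 alternative fits the log2 fold change ran from -0.18 to 0.06 for Gpr17 and from -0.16 to 0.005 for Enpp6. For Bcas1 it ran from -0.19 to -0.07. The 2 males that stand apart are in this fluoxetine group. Gpr17 was 957 and 1742 in them, below the 2349 to 3540 of the other 57 libraries. Enpp6 was 195 and 342 against 275 to 626, and Bcas1 1238 and 1679 against 1534 to 2696, so that in both genes replicate 3 lay below every other library and replicate 4 within their range. Pdgfra went the other way in replicate 3, at 2490, above the 1272 to 2002 of the other 57 libraries, and was 1726 in replicate 4. Sox6 was 443 in replicate 3, below the others, and 584 in replicate 4, and Cspg4, Lhfpl3 and Cacng4 lay within the range of the others in both. The cause was not tested.

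No gene of those tested passed for a fluoxetine effect that differed between genotypes (0% by limma, where 3917 had an unadjusted p under 0.05; edgeR also called 0). Lhfpl3 was the 1 of the 8 genes with an unadjusted p under 0.05 there, with a heterozygous minus wild-type difference in effect of -0.51 ± 0.20 (limma adjusted p = 0.147). Without heterozygous vehicle male 1 it passed (limma adjusted p = 0.0492).

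Between the sexes, averaged over all groups, none of the 8 passed (limma adjusted p from 0.713 to 0.972), none had an unadjusted p under 0.05 and edgeR called none, where 0.156% of all genes passed. The drug effects in heterozygous mice, by contrast, did differ between females and males for some of the genes. For fluoxetine 4 of 8 passed, against 34.3% of all genes: Lhfpl3 (female minus male effect 1.13 ± 0.28, limma adjusted p = 0.0024), Cacng4 (0.55 ± 0.19, limma adjusted p = 0.0222), Pdgfra (-0.42 ± 0.12, limma adjusted p = 0.00582) and Cspg4 (-0.33 ± 0.10, limma adjusted p = 0.00689). Lhfpl3 under fluoxetine was 1305, 1437, 1235, 1049 and 1091 normalised counts in heterozygous females and 811, 1217, 837, 838 and 888 in heterozygous males. Its drug effect was thus 0.38 ± 0.20 in females and -0.75 ± 0.20 in males, where the vehicle males include the 2 highest libraries. Pdgfra was -0.14 ± 0.08 in females and 0.28 ± 0.08 in males, and Cspg4 -0.28 ± 0.07 and 0.05 ± 0.07. Olfactory bulb genes behaved like Lhfpl3, with 12 of 14 passing, all with the higher effect in females. With their mean as a covariate none of the 8 genes passed, and with only the 4 groups compared in the fit 1 did. The Cacng4 call ended without fluoxetine female 2, vehicle female 4 or vehicle male 3 or 4 (limma adjusted p up to 0.0609).

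For lithium in heterozygous mice 1 of the 8 genes, Cspg4, passed this test (-0.33 ± 0.10, limma adjusted p = 0.0491), against 3.07% of all genes, with an effect of -0.21 ± 0.07 in females and 0.11 ± 0.07 in males. The adjusted p was 0.0541 with TMM factors and 0.0552 with edgeR, and the call ended with 15 of the 20 libraries left out in turn (limma adjusted p up to 0.156). In wild-type mice neither drug gave a sex-dependent effect in any gene tested (0% for lithium, with 323 at an unadjusted p under 0.05, and 0% for fluoxetine, with 689), and none of the 8 had an unadjusted p under 0.05 or was called by edgeR.

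Other genes of the lineage were followed from lists chosen by role. Their counts under vehicle are to be read against the 13.1% of all genes tested that passed there. Under vehicle, of 13 further precursor genes 1 was lower in heterozygous mice, Tnr (-0.19 ± 0.07, limma adjusted p = 0.0494), which encodes the matrix protein tenascin-R. Of 12 further committed-stage genes 1 was higher, Tmem163 (0.58 ± 0.15, limma adjusted p = 0.0240), a zinc transporter. None of 14 lineage transcription regulators passed, Sox10 being nearest (856 ± 168 in heterozygous and 694 ± 135 in wild-type mice; 0.30 ± 0.12, limma adjusted p = 0.0729). Of 5 genes of the PDGF system other than Pdgfra, Pdgfa was lower (802 ± 134 against 914 ± 82.3 normalised counts; -0.20 ± 0.06, limma adjusted p = 0.0349). Its product is the growth factor that PDGFRA binds, made in the brain by neurons and astrocytes. With the olfactory bulb covariate Tnr, Tmem163 and Pdgfa did not pass (limma adjusted p from 0.750 to 0.853). With 1 of 20 libraries left out in turn the Tnr call held in 7 fits, that of Pdgfa in 11 and that of Tmem163 in 15, and over the 11 alternatives the Tnr call held in 3 and the other two calls in 7 each.

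Averaged over drugs, Sox10 was higher in heterozygous mice (0.26 ± 0.07, limma adjusted p = 0.0112), as were the adhesion gene Pcdh15 (0.18 ± 0.05, limma adjusted p = 0.0105), Matn4, Fyn and Tmem163, while Pdgfa (-0.15 ± 0.04, limma adjusted p = 0.0095) and Cspg5 (-0.10 ± 0.03, limma adjusted p = 0.0225) were lower. That is 1 of 14 regulators, 2 higher and 1 lower of 13 further precursor genes, 2 of 12 committed-stage genes and 1 of 5 PDGF genes. Of all genes tested 21.4% passed in this average, and the counts are to be read against that share. Sox10, Pcdh15, Pdgfa and Cspg5 passed whichever library was left out, and none of the 7 passed with the olfactory bulb covariate. The 21 genes of myelinating oligodendrocytes included none that passed in either comparison of genotypes.

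Over both genotypes a gene of the lineage that changed with each drug was Sox8, a factor of the SoxE family that acts beside SOX10 in oligodendrocyte maturation and is also made by astrocytes. In heterozygous vehicle mice Sox8 ran from 888 to 1209 normalised counts with a median of 986, and in wild-type vehicle mice from 946 to 1079 with a median of 998. Under lithium it ran from 829.2 to 955 (median 887) in heterozygous and from 758 to 984 (median 826) in wild-type mice, and under fluoxetine from 706 to 931 (median 852) and from 749 to 1044 (median 830). The 4 drug-treated medians thus lay below both vehicle medians, though the ranges overlapped.

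Sox8 was lower under fluoxetine in heterozygous mice (-0.27 ± 0.05, limma adjusted p = 0.000894), in wild-type mice (-0.25 ± 0.05, limma adjusted p = 0.0057) and over both (-0.26 ± 0.03, limma adjusted p = 1.07e-06). Under lithium it was lower in wild-type mice (-0.24 ± 0.05, limma adjusted p = 0.00651) and over both (-0.21 ± 0.03, limma adjusted p = 4.77e-05), and in heterozygous mice it missed the threshold (-0.18 ± 0.05, limma adjusted p = 0.0505). The 2 drugs were compared with the same vehicle mice, so these are not independent. Over both genotypes Sox8 passed in all 11 alternative fits and whichever library was left out, for either drug, with log2 fold changes of -0.28 to -0.23 for fluoxetine and -0.21 to -0.20 for lithium.

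Calls of other lineage genes with a drug are to be read against the share of all genes that passed. For fluoxetine that share was 4.27% in heterozygous mice, 0.447% in wild-type mice and 3.09% over both. For lithium it was 0.497%, 0.162% and 2.12%. Under fluoxetine in heterozygous mice Olig1 was lower (1779 ± 349 against 2198 ± 170 normalised counts; -0.33 ± 0.08, limma adjusted p = 0.0142) and Id2, an inhibitor of differentiation, higher (0.12 ± 0.03, limma adjusted p = 0.0156). Without the 2 males that stand apart neither passed (limma adjusted p = 0.242 and 0.200). Over both genotypes Id2 was higher under fluoxetine (0.09 ± 0.02, limma adjusted p = 0.00846) and Sox9, a factor of astrocytes and early glial precursors, under lithium (0.24 ± 0.05, limma adjusted p = 0.00788), and both passed in the 11 alternative fits and whichever library was left out. In heterozygous mice Nkx6-2, a factor of maturing oligodendrocytes, was lower under lithium (-0.72 ± 0.18, limma adjusted p = 0.0465), a call kept in 7 of 20 fits with a library left out. None of the 13 further precursor genes, 12 committed-stage genes or 5 PDGF genes passed in any comparison of a drug with vehicle.

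Across the 59 libraries, after the mean of each group was removed, the 8 genes did not vary as a unit. Of the 28 pairs 15 were positively and 13 negatively correlated, with Pearson's r from -0.78 to 0.87 and a median of 0.02. In 13 pairs the adjusted permutation p was under 0.05. The tightest pair was Enpp6 and Bcas1, both of the committed stage (r = 0.87, rho = 0.82, permutation p = 1e-05, the smallest that 100000 resamples can give, adjusted p = 7e-05; r = 0.85 with the 2 most extreme libraries removed). Gpr17 went with Bcas1 (r = 0.54, rho = 0.58, adjusted permutation p = 0.000392) and with Enpp6 (r = 0.60, rho = 0.44, adjusted permutation p = 0.00268). Without the 2 farthest libraries these fell to 0.45 and 0.41. The 3 committed markers thus varied together, but not apart from all precursor genes. Enpp6 also went with Lhfpl3 (r = 0.44, rho = 0.47, adjusted permutation p = 0.000793). Gpr17 went with Sox6 (r = 0.47, rho = 0.46, adjusted permutation p = 0.00366), falling to 0.30 without the 2 farthest libraries. No other pair of a committed and a precursor marker had an adjusted permutation p under 0.05.

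The precursor markers split. Pdgfra and Cspg4, whose products mark the surface of the same cells, correlated moderately (r = 0.44, rho = 0.48, adjusted permutation p = 0.00366). Cspg4 correlated as much with Sox6 (r = 0.45, rho = 0.44, adjusted permutation p = 0.00366). Lhfpl3 and Cacng4 correlated strongly with each other (r = 0.83, rho = 0.84, adjusted permutation p = 7e-05; r = 0.82 without the 2 farthest libraries) and negatively with Sox6 (r = -0.64, rho = -0.65, and r = -0.78, rho = -0.78; adjusted permutation p = 7e-05 each). Pdgfra and Gpr17, markers of successive stages, gave r = -0.41 but rho = 0.04 (permutation p = 0.204), and r was -0.13 without the 2 males that stand apart.

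**Figure D3:**
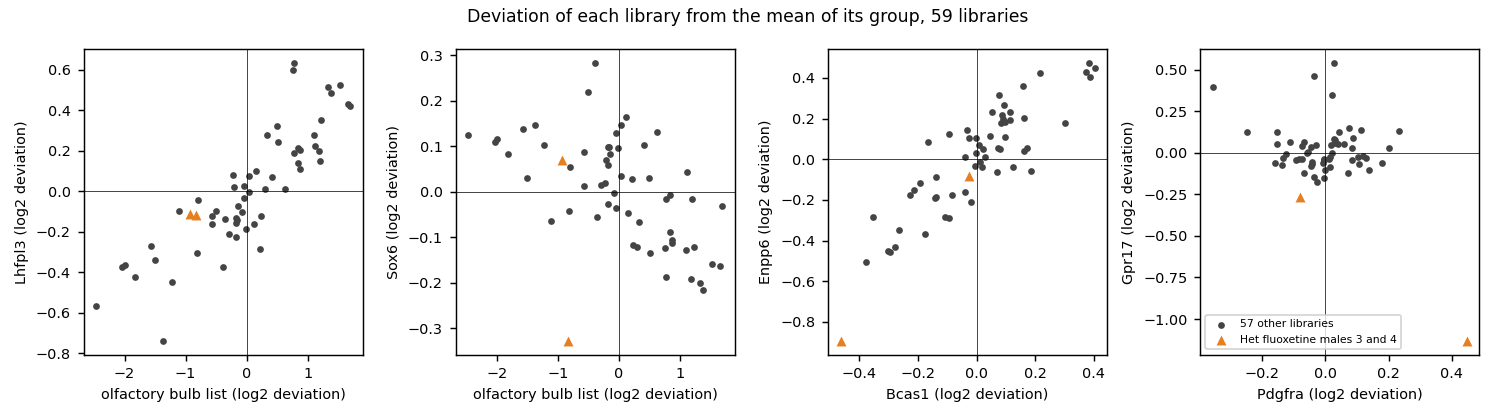
Deviations of log2 level from the group mean in 59 libraries, for Lhfpl3 and Sox6 against the olfactory bulb list, Enpp6 against Bcas1 and Gpr17 against Pdgfra, with triangles for the 2 heterozygous fluoxetine males that stand apart. Lhfpl3 rises with the olfactory bulb list (r = 0.86), Sox6 falls with it (r = -0.54), Enpp6 follows Bcas1 (r = 0.87), and Gpr17 against Pdgfra has r = -0.41, or -0.13 without the triangles.

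The genes also correlated with marker lists of whole cell types, a family of 128 relations. Lhfpl3 correlated with the olfactory bulb list (r = 0.86, rho = 0.86; r = 0.84 without the 2 farthest libraries) and the neuroblast list (r = 0.91, rho = 0.91), and inversely with the lists of cortical projection neurons (r = -0.90, rho = -0.90) and medial interneurons (r = -0.89, rho = -0.85). Cacng4 did the same less tightly (r = 0.77, rho = 0.79 with the olfactory bulb list). Sox6 ran the other way, with r = 0.72 and rho = 0.75 for projection neurons, r = 0.67 and rho = 0.70 for medial interneurons (adjusted permutation p = 0.000142) and r = -0.54 and rho = -0.58 for the olfactory bulb (adjusted permutation p = 0.00149). The other relations named here have an adjusted permutation p of 8e-05. The same genes also correlated with lists of their own lineage: Lhfpl3 with the further committed-stage genes (r = 0.76, rho = 0.73, adjusted permutation p = 8e-05) and Cacng4 with them less (r = 0.48, rho = 0.46, adjusted permutation p = 0.00494). With the list of further precursor genes the adjusted permutation p was 0.0975 for Lhfpl3 (r = 0.30), 0.342 for Cacng4 (r = 0.18) and 0.715 for Sox6 (r = -0.08). This was not particular to them: it was 0.773 for Pdgfra (r = 0.06), 0.0905 for Cspg4 (r = 0.29) and 0.259 for Gpr17 (r = 0.14). Only Enpp6 (r = 0.53, adjusted permutation p = 0.000142) and Bcas1 (r = 0.47, adjusted permutation p = 0.00332) correlated with that list below 0.05.

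Enpp6 and Bcas1 correlated with the 21 myelinating genes (r = 0.72, rho = 0.70 and r = 0.73, rho = 0.72) and with the 12 further committed-stage genes (r = 0.80, rho = 0.81 and r = 0.71, rho = 0.67), each with an adjusted permutation p of 8e-05. Enpp6 also correlated with the neuroblast list (r = 0.46, rho = 0.45, adjusted permutation p = 0.000576). For Cspg4 the highest correlation was with the microglia list (r = 0.59, rho = 0.59, adjusted permutation p = 0.000202), followed by the lists of endothelial cells (r = 0.47, rho = 0.47, adjusted permutation p = 0.00503), medial interneurons (r = 0.45, rho = 0.34, adjusted permutation p = 0.00716), pericytes (r = 0.43, rho = 0.45, adjusted permutation p = 0.0151) and projection neurons (r = 0.40, rho = 0.29, adjusted permutation p = 0.0185). Pdgfra correlated with the 5 other PDGF genes (r = 0.66, rho = 0.44, adjusted permutation p = 0.001), a value that fell to 0.39 without the 2 farthest libraries, while leptomeningeal fibroblast genes gave r = -0.10. Pdgfra also correlated with the endothelial list (r = 0.44, rho = 0.47, adjusted permutation p = 0.00943) and the medial interneuron list (r = 0.40, rho = 0.44, adjusted permutation p = 0.00582). It correlated inversely with the neuroblast list (r = -0.49, rho = -0.48, adjusted permutation p = 0.00061) and the olfactory bulb list (r = -0.47, rho = -0.46, adjusted permutation p = 0.003). All these relations share libraries and dissection.

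**Figure D4:**
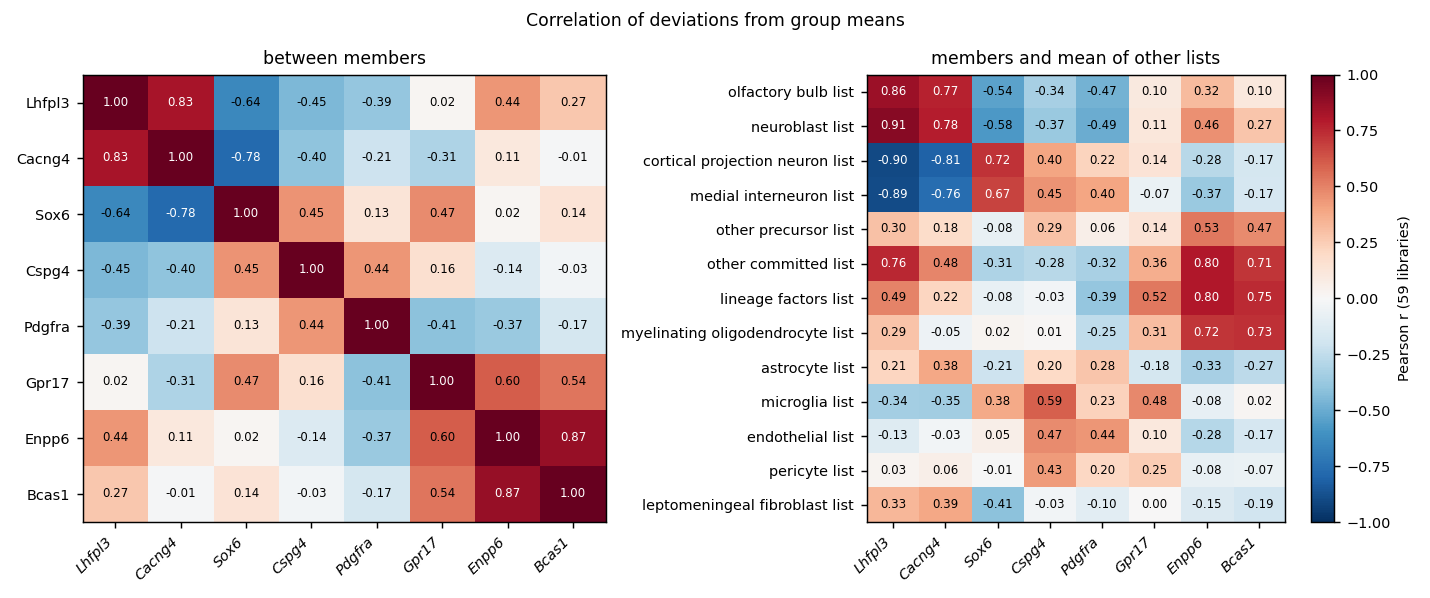
Pearson correlation of group-centred log2 levels over 59 libraries, between the 8 genes (left) and between each gene and the marker lists (right), on a colour scale from -1 to 1. Enpp6 with Bcas1 (0.87) and Lhfpl3 with Cacng4 (0.83) form 2 blocks, and the columns of Lhfpl3 and Sox6 have opposite colours over the olfactory bulb, neuroblast, projection neuron and medial interneuron lists.

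The nearest genes, among 12581 with a mean of at least 100 normalised counts, differed between the markers. For Enpp6 they were Bcas1 (r = 0.87), the oligodendrocyte connexin gene Gjc3 (0.86) and Plxnb3 (0.84), and for Bcas1 they were Enpp6, the glycolipid transfer protein gene Gltp (0.84) and the myelin gene Cnp (0.80). For Lhfpl3 they were Rnd3, Gad1 and Btg1 (0.96 each), of which Gad1 makes the transmitter GABA, and for Cacng4 Spp1 (0.92), Dennd2a (0.92) and Adcyap1r1 (0.91). For Sox6 they were Adam22 (0.83), Tbr1 (0.83), a factor of cortical projection neurons, and Itga8 (0.82). For Pdgfra they were Slc25a37 (0.75), Abhd2 (0.75) and the endothelial gene Flt1 (0.73), and for Cspg4 Smpd4 (0.68), Fam107a (0.68) and Clu (0.66). Those of Gpr17, Spice1 (0.86), Fam161b (0.86) and Btbd3 (0.85), fell to between 0.65 and 0.69 without the 2 males that stand apart.

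In GRCm38 the genes, all protein-coding, are annotated at 5:75152292-75198215 (Pdgfra, plus strand), 9:56865033-56899870 (Cspg4, plus), 18:31942997-31949636 (Gpr17, minus), 8:46986887-47096762 (Enpp6, plus), 2:170346991-170427845 (Bcas1, minus), 5:22746059-23275597 (Lhfpl3, plus), 7:115470872-116038796 (Sox6, minus) and 11:107732357-107794557 (Cacng4, minus). Within the table Gpr17 overlaps Lims2 on the opposite strand, Cacng4 overlaps Gm11650 on the opposite strand, and Lhfpl3 overlaps 2 long non-coding genes, 6030443J06Rik on its own strand and A930003O13Rik on the other. Whether counting used strand is not stated, so reads of these overlaps may be shared.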

How the data were processed

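RNA was sequenced from prefrontal cortex of 59 mice with a kit that keeps strand (TruSeq Stranded mRNA, per the labels). Per the submitters' processing notes the tools were Salmon 0.11.2, R 3.6.0 and DESeq2 1.19.11, with GRCm38; the strand setting of counting is not stated. The deposited values are a signal that the authors made by dividing each library's counts by its size factor ("normalised counts"): with the step of each library, 100% of values became whole to within 0.01 counts, although in 3 libraries the step is too near 1 to show it.

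Samples were grouped by genotype, drug and sex (12 groups) from the labels. Genes with a value of at least 10 in at least 4 libraries (17901, all 8 markers included) were tested with limma 3.58.1 (trend, R 4.3.3) on log2(value + 1), with 1 mean per group, 47 residual degrees of freedom, Benjamini-Hochberg adjustment within each of 18 comparisons and a threshold of 0.05. Fold changes are on the log2(value + 1) scale, sexes weighted equally. Symbols come from the GENCODE M21 annotation of GRCm38 (18077 of 18088 identifiers). Correlations used deviations from group means, with 100000 permutations within groups. Python 3.11.15, pandas 2.3.3, numpy 2.4.6, scipy 1.17.1 and matplotlib 3.10.9 were used, and the fits were tested on simulated data.

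Alternatives were a pseudocount of 5, no filter, a filter of 100, TMM factors, a replicate block, edgeR 4.0.16 (quasi-likelihood) on the recovered counts, 2 marker list means as covariates, only the groups compared, leaving out 2 heterozygous fluoxetine males, and leaving out each library. The fit with the olfactory bulb covariate and without the 2 males was added after seeing the data. The 8 genes and the 16 other lists (the cell types and roles named in the text) were chosen with earlier results of these data known. All 8 were tested in every comparison, and values are given for those that passed and for some of the others. Of each other list up to 4 genes of smallest p among those that passed, or up to 2 where none passed, could be named. Several lists are given as counts only. For each marker the 3 genes of highest correlation are given. Sox8, Olig1, Sox10 and Pdgfa were given levels per group after their tests were seen.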

Additional observations from a re-analysis of the deposited data

Results flagged for a closer look

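In 4 of 96 groups of 4 or 5 mice 1 value lay far from the rest, where chance gives about 1 in 20. Pdgfra in wild-type vehicle female 4 was 1478 normalised counts, against 1672 to 1736 in the other 4. Gpr17 in wild-type fluoxetine female 5 was 3540, against 2511 to 2782. Bcas1 in heterozygous lithium male 4 was 1728.5, against 2100 to 2215. Lhfpl3 in heterozygous fluoxetine male 2 was 1217, against 811 to 888.

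In 9 cases an effect differed between females and males by the limma test of the difference itself, given as the female minus the male log2 effect. For genotype under vehicle, where 16% of all genes passed, these were Cspg4 (0.39), Lhfpl3 (-1.04), Sox6 (0.36) and Cacng4 (-0.54). For lithium in heterozygous mice, where 3.07% of all genes passed, it was Cspg4 (-0.33). For fluoxetine in heterozygous mice, where 34.3% of all genes passed, they were Pdgfra (-0.42), Cspg4 (-0.33), Lhfpl3 (1.13) and Cacng4 (0.55). The 9 cases are to be read against those shares. None passed with the olfactory bulb list as a covariate.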

How the results depend on the processing

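No called value of the 8 genes changed sign under an alternative. With the olfactory bulb covariate, with or without the 2 heterozygous fluoxetine males, 0 of the 8 genes passed in each comparison, among them genotype under vehicle, genotype over all drugs and the 3 tests of sex-dependent effects in which genes had passed, while 113 (without the males 47) of all genes passed for genotype over all drugs and 0 for genotype under vehicle. Genotype under vehicle also gave 0 of 8 with the myelinating list as covariate (87 genes in all) and with only the groups compared (139 genes). Only the groups compared gave 0 of 8 for sex-dependent genotype, 0 for sex-dependent lithium and 1 for sex-dependent fluoxetine effects. Fluoxetine in wild-type mice gave 1 of 8 with only the groups compared (1151 genes) and without the 2 males (522 genes). Sex-dependent lithium gave 0 with TMM factors, edgeR and the replicate block.

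Leaving out 1 library in turn gave 0 to 4 of 8 for genotype under vehicle, 1 to 3 for genotype over all drugs, 0 to 5 for sex-dependent genotype, 3 to 4 for sex-dependent fluoxetine, 0 to 2 for sex-dependent lithium, 0 to 1 for fluoxetine over both genotypes and 0 to 1 for fluoxetine by genotype. Over all genes the calls under the other alternatives ranged from 0 to 4086 for genotype under vehicle, 47 to 4652 over all drugs, 2 to 1238 for fluoxetine in heterozygous mice, 33 to 1151 in wild-type mice, 250 to 1657 over both, 49 to 450 for lithium in heterozygous mice, 25 to 259 in wild-type mice and 368 to 1486 over both, 0 to 44 and 0 to 9 for genotype under fluoxetine and lithium, and from 3 to 6321, 0 to 4279 and 2 to 1876 for sex-dependent fluoxetine, genotype and lithium effects. With 1 library left out they ranged from 29 to 5058 for genotype under vehicle, 238 to 2475 for fluoxetine in heterozygous mice and 0 to 1277 for fluoxetine by genotype.

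Replicate numbers do not pair the mice: deviations of same-numbered libraries correlated with a median of -0.0036 over 319 pairs. The replicate block ended 2 calls, Cacng4 for sex-dependent genotype (limma adjusted p = 0.0538) and Cspg4 for sex-dependent lithium (limma adjusted p = 0.0511). The cause of these changes was not tested. Group sizes of 4 or 5 mice per sex limit these tests, counting error was not separated from the spread between mice, and litters could not be modelled.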

Other observations

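Of 10 proliferation genes, which dividing precursors share with other dividing cells, none passed for genotype under vehicle, 1 was higher in heterozygous mice over all drugs and 1 under fluoxetine in heterozygous mice. Of all genes tested 13.1%, 21.4% and 4.27% passed in these comparisons. Among the vehicle males the mean log2 level of the olfactory bulb list was -0.09, 0.90, 2.06, 2.04 and 1.52 in the heterozygous and -0.53, -2.30, -1.96, -2.09 and -1.77 in the wild-type mice. Lhfpl3 was lowest among the heterozygous males in the mouse with the lowest of these levels, at 915 normalised counts, and highest in the mouse with the highest, at 2370.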
